A study of Drosophila melanogaster with 24 samples.

Results

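Embryos in which HDAC3 had been knocked down and a HEBI mutant of HDAC3 put back (rescue HEBI) were compared with embryos that had the knockdown alone (HDAC3 shRNA), gene by gene, by RNA-seq. The comparison takes 8 of the 24 libraries of the study, 4 of each genotype, matched by the replicate number in the labels. All libraries were made from whole Drosophila melanogaster embryos collected 2 to 4 h after egg laying at 25°C. Both groups carried tub-GAL4/shRNA HDAC3, in which the maternal alpha-tubulin driver expresses a short hairpin RNA against HDAC3 in the female germline, so the depletion is of the product that mothers load into the egg. Rescue HEBI carried in addition 1 copy of an HDAC3 transgene driven by the endogenous promoter. This transgene resists the hairpin and encodes a protein in which the 4 clusters of residues named HEBI were exchanged. A control with the driver alone (tub-GAL4/+) and a rescue with the wild-type transgene (rescue WT) are given beside named genes. The other 2 rescues of the study carry transgenes labelled Y303F and K26A, and their values are given for some of the named genes only. In Y303F rescue embryos the study also found much RNA from the endogenous HDAC3 gene, and it proposes that wild-type protein is made there. The genotypes are those of mothers, which were mated to males of the same cross, so embryos within a collection can differ in what they inherited. Each replicate is a pool of embryos, and the number of independent lines per transgene is not given in the sources used here.

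HDAC3 is a histone deacetylase that works as the enzymatic subunit of the NCoR/SMRT corepressor complexes, which transcription factors recruit to keep genes off. The fly counterpart of NCoR and SMRT is SMRTER, encoded by Smr, and contact with it is what switches on the deacetylase. The HEBI exchanges were modelled on mammalian HDAC3, where they remove binding to NCoR and SMRT along with catalysis, so the comparison asks what a protein impaired in both does to the transcripts of the knockdown embryo. At this age the embryo passes from maternal RNA to its own transcription, forms its first cells and lays out its segments and germ layers.

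The 8 libraries held 17424982 to 26573692 counts. Levels are given as CPM, the counts per megacount of scaled library size, and 1 CPM stood for 17.14 to 25.51 counts. Of 17559 genes, 10003 had enough counts to be tested. HDAC3 itself (3R, 5472810 to 5474600, BDGP6.54 assembly) and CG45100, which the annotation places on the same bases, were listed at 0 in all 24 libraries. The counts therefore showed neither the depletion nor the transgene, and the genotypes were taken as labelled. In a principal component analysis of the 8 libraries the first component held 61.9% of the variance. It placed replicates 1 and 2 of HDAC3 shRNA at -87.2 and -70.0 and replicates 3 and 4 at 28.3 and 7.35. The rescue HEBI libraries lay to the positive side of their partners, at -16.1, -10.3, 60.5 and 87.6. Replicate numbers thus divided both genotypes the same way, into numbers 1 and 2 against numbers 3 and 4. The labels give no date or batch for this division. All values below are from the fit with replicate number as a block, unless stated, and calls needed both a change of at least 2-fold and an adjusted p (Benjamini-Hochberg) of at most 0.05.

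With the block, over all 4 replicate numbers and at 2-fold, more genes were called higher than lower in rescue HEBI. By edgeR's quasi-likelihood test 956 of 10003 genes were higher (9.56%) and 251 were lower (2.51%). Without the block the same test called 94 higher (0.94%) and 74 lower (0.74%), of which 94 and 72 were among the calls of the blocked fit. The excess of higher genes depended on the setting. Replicates 3 and 4 alone gave 251 higher and 259 lower, and the adjusted p alone gave 2175 and 2072. Of the 956 higher genes, 823 were higher in each of the 4 pairs, as were 2585 of all 10003 tested genes. Of the 251 lower genes, 240 were lower in each pair, as were 2201 of all tested genes. The calls came from a fit blocked on the same pairs, which favours such agreement in advance. Among the higher genes, 733 differed by 2- to 4-fold, 104 by 4- to 8-fold and 119 by more than 8-fold. Among the lower genes the corresponding numbers were 223, 19 and 9. Regardless of pairing, the 4 rescue HEBI libraries all lay above the 4 HDAC3 shRNA libraries for 374 genes (3.74%) and all below them for 376 (3.76%). The called genes in these sets numbered 247 of 956 and 143 of 251.

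The genes called higher and lower had different median levels. Calls came from the same HDAC3 shRNA and rescue HEBI libraries, so the medians in these groups were partly set by the selection. With a mean of at least 5 CPM required, the higher genes numbered 335 and the lower genes 140. The median higher gene was at 0.821 CPM in HDAC3 shRNA, 2.47 CPM in rescue HEBI and 3.16 CPM in the control. The median lower gene was at 41.4 CPM in HDAC3 shRNA, 16.1 CPM in rescue HEBI and 18.2 CPM in the control. Over all tested genes these medians lay between 21.2 and 21.8 CPM. Non-coding RNAs made up 6.37% of the lower genes and 2.69% of the tested genes. Shares of higher genes on the large chromosome arms ran from 7.54% on X to 10.9% on 2R, and shares of lower genes from 1.74% on 3L to 3.37% on 2R and X. In bulk RNA from whole embryos, a change in the number of cells of a type and a change in RNA per cell cannot be told apart.

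**Figure D1:**
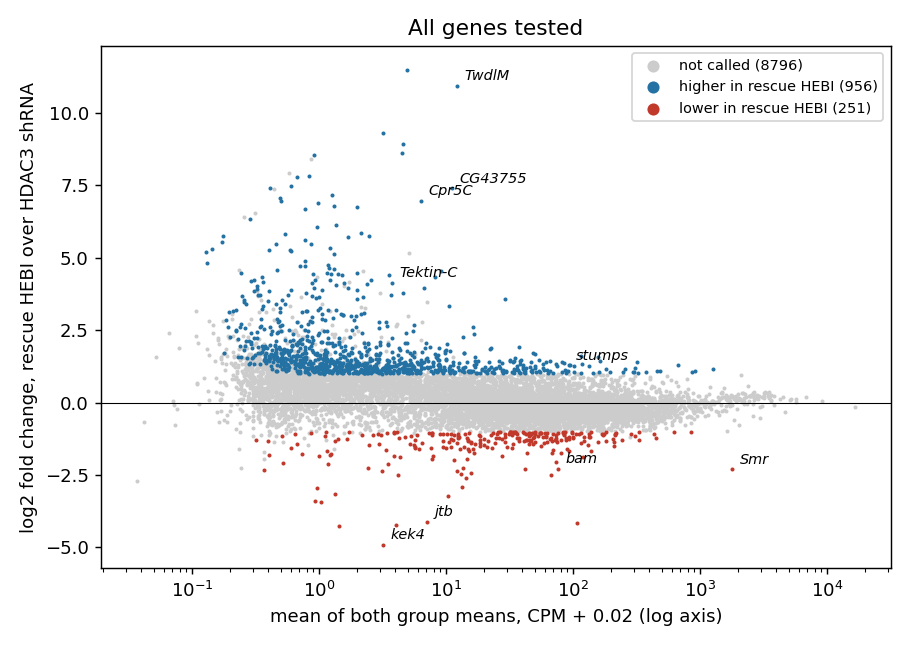
Log2 fold change of rescue HEBI over HDAC3 shRNA (y axis) against the mean of both group means in CPM (x axis, log scale, 0.02 added) for the 10003 tested genes, 1 point per gene. The 956 higher genes (blue) sit mostly at low levels, while the 251 lower genes (red) include Smr at the right end.

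Smr, which encodes the SMRTER corepressor, was lower in rescue HEBI (X, 12684203 to 12742618, 11 exons). Its level in HDAC3 shRNA was 5698, 2509, 2411 and 1361 CPM in replicates 1 to 4, and in rescue HEBI it was 1166, 493, 484 and 279 CPM. Every rescue HEBI library lay below every HDAC3 shRNA library. The log2 fold change was -2.31 (SE 0.22, adjusted p = 2.59e-07), and the 4 pairs gave -2.29, -2.35, -2.32 and -2.28. Without the block the spread between replicate numbers entered the error and the adjusted p was 0.106. The control held 851, 514, 362 and 185 CPM, and rescue HEBI did not differ from it beyond the spread (log2 0.36, adjusted p = 0.298). Rescue WT held 2747, 1220, 1476 and 376 CPM, and rescue HEBI was lower than rescue WT by the test of that difference (log2 -1.16, adjusted p = 0.0043). With 1 of the libraries of either rescue left out, this difference ranged from -1.31 to -0.97 with an adjusted p of at most 0.0271, and it was called in 7 of 8 such fits. These comparisons share their libraries with the main one.

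Of 15 genes for corepressors and other deacetylases, Smr was the only one called (6.67%, against 2.51% lower over all tested genes). The list had a median log2 change of -0.09, against 0.08 over all tested genes. Ebi, a WD40-repeat partner of SMRTER, stood at 615, 512, 346 and 334 CPM in HDAC3 shRNA and at 494, 444, 230 and 210 CPM in rescue HEBI. It was lower in each pair (gene ebi, log2 -0.45, SE 0.09, adjusted p = 0.000742) but below the 2-fold threshold.

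Some germline genes were also lower. Bag of marbles (bam), the switch for germ cell differentiation, was at 163, 160, 96.6 and 89.9 CPM in HDAC3 shRNA and at 31.3, 32.0, 21.0 and 18.9 CPM in rescue HEBI. The groups did not overlap and the log2 fold change was -2.29 (SE 0.12, adjusted p = 2.94e-10, and 0.00126 without the block). Rescue HEBI also lay below the control for bam, which held 47.3, 56.2, 32.0 and 24.6 CPM (log2 -0.60, adjusted p = 0.00462). Rescue WT held 85.9, 88.1, 51.4 and 31.5 CPM. The log2 difference between the rescues was -1.25 (adjusted p = 6.91e-06), and it was called in all 8 fits that left out 1 library. Stand still (stil), needed in the female germline, fell from 13.9, 13.5, 11.3 and 11.01 CPM to 2.83, 2.64, 4.31 and 2.80 CPM. Its log2 fold change was -1.95 (SE 0.32, adjusted p = 0.00011), with no overlap between groups. Polar granule component (pgc), which silences transcription in the pole cells, was called at -1.01 but fell under the threshold in 4 of 8 fits that left out a library (log2 down to -0.91, adjusted p up to 0.0405). These 3 were the called members among 11 tested germ plasm and piRNA genes (27.3%, against 2.51% lower over all tested genes). The median of the list was -0.70. Without the block 2 were called. All of osk, tud, aub, gcl, piwi, CycB, mael and ovo had log2 values between -0.81 and -0.42 and were not called.

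Among 12 maternal regulators, RNAs that mothers deposit to set up the axes and control translation, 1 was called lower and none higher. That is 8.33%, against 2.51% lower over all tested genes. The median of the list was -0.88, and the medians of the 4 pairs were -0.73, -0.82, -0.66 and -0.94. The called gene was giant nuclei (gnu), a subunit of the PNG kinase, at 118, 131, 52.4 and 42.2 CPM in HDAC3 shRNA, against 43.9, 60.0, 28.6 and 17.8 CPM in rescue HEBI (log2 -1.15, SE 0.31, adjusted p = 0.00609). Bicoid (bcd) and smaug (smg) lay just under 2-fold, with log2 values of -0.98 and -0.99. The count of called maternal regulators was 1 to 5 when 1 library was left out (5 without rescue HEBI replicate 3), 4 with no filter on low counts and 0 without the block. Summed over the list, maternal regulators took 5615, 4758, 3642 and 2827 CPM in HDAC3 shRNA, against 3399, 2787, 2050 and 1404 CPM in rescue HEBI. The control held 3420, 3275, 1910 and 1375 CPM. In every pair the rescue HEBI sum was below that of its partner.

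**Figure D2:**
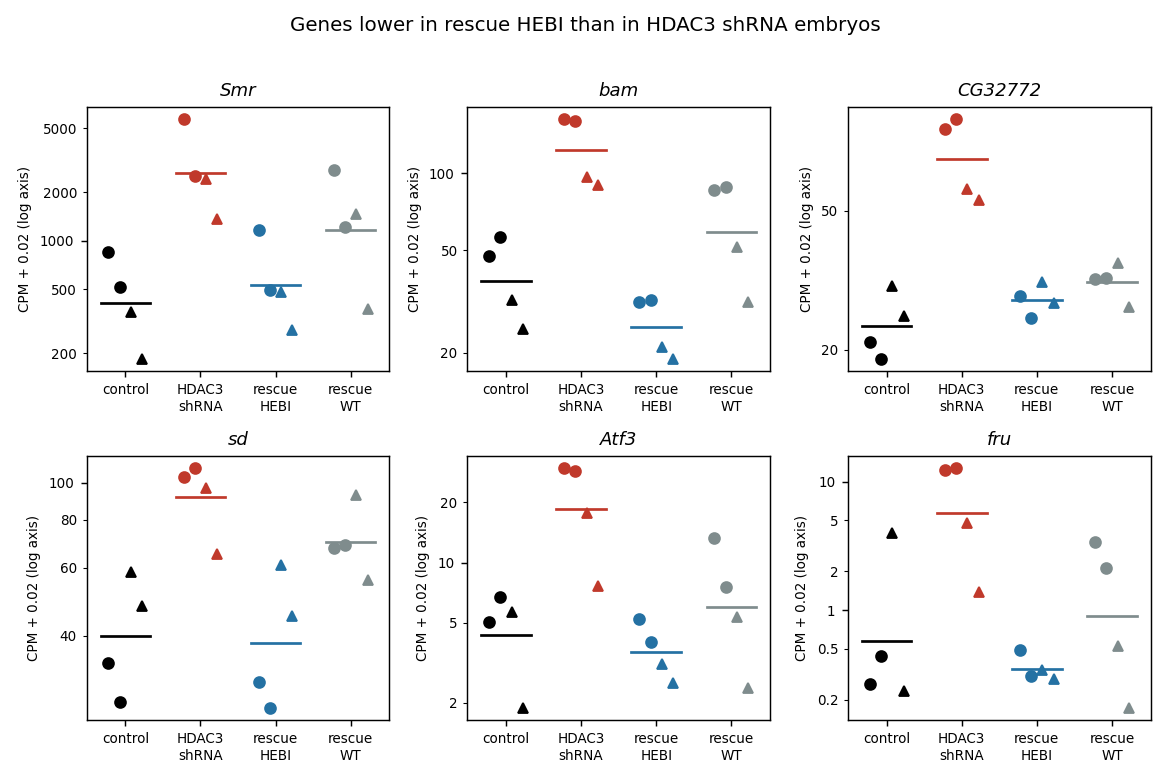
CPM (log axis, 0.02 added) of 6 genes that were lower in rescue HEBI than in HDAC3 shRNA, in the 4 libraries of control, HDAC3 shRNA, rescue HEBI and rescue WT. Circles are replicates 1 and 2, triangles are replicates 3 and 4, and bars are means of the log values; for Smr, bam, CG32772, sd, Atf3 and fru every HDAC3 shRNA library lies above every rescue HEBI library.

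Several large falls were in genes with low levels in most control libraries. Kekkon 4 (kek4), a transmembrane protein with leucine-rich repeats, was at 2.92, 3.17, 8.89 and 9.76 CPM in HDAC3 shRNA and at 0.188, 0, 0.266 and 0.323 CPM in rescue HEBI. Its log2 fold change was -4.90 (SE 0.72, adjusted p = 4.44e-05), and the control was between 0.0533 and 0.181 CPM. Fruitless (fru), a zinc-finger transcription factor of male courtship, was at 12.2, 12.7, 4.77 and 1.37 CPM against 0.471, 0.287, 0.319 and 0.269 CPM (log2 -4.23, SE 0.92, adjusted p = 0.00136). Doublesex (dsx), the other terminal factor of sex determination, was at 6.71, 7.12, 3.68 and 2.90 CPM against 1.55, 2.18, 1.33 and 1.18 CPM (log2 -1.64, SE 0.32, adjusted p = 0.000518). The groups did not overlap for kek4, fru or dsx. Of 10 genes of dosage compensation and sex determination, fru and dsx were the lower ones. The shares were 20% lower and 10% higher, against 2.51% and 9.56% over all tested genes. Male-specific lethal 2 (msl-2), which builds the dosage compensation complex, was the higher one, with a log2 value of 1.20 (adjusted p = 0.000267). Without the block none of the 10 was called.

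Among genes known only by number, CG1998 fell from 27.1, 22.6, 13.5 and 12.3 CPM to 2.26, 2.30, 1.97 and 1.24 CPM (log2 -3.23, SE 0.27, adjusted p = 6.38e-08). Its rescue HEBI values overlapped those of the control, 1.69 to 2.45 CPM, while rescue WT was at 4.00 to 13.8 CPM. The K26A rescue, at 4.00, 3.59, 2.05 and 2.11 CPM, overlapped the control as well. The Y303F rescue was at 7.28 to 21.8 CPM. CG3842 fell from 167, 158, 70.0 and 65.1 CPM to 23.0, 25.5, 15.9 and 12.4 CPM (log2 -2.50, SE 0.19, adjusted p = 2.16e-08), with control at 19.3 to 51.6 CPM. CG34112, CG13252, CG34216 and CG5835 had log2 values of -2.52, -2.46, -2.42 and -2.37, and the long non-coding RNA lncRNA:CR43837 had -2.90. Groups did not overlap for any of these 7. The pseudouridine synthase gene Pus10 was at 25.7, 30.9, 20.1 and 21.7 CPM against 2.87, 2.93, 5.43 and 4.79 CPM (log2 -2.61, SE 0.30, adjusted p = 2.58e-06). Rescue HEBI lay below the control for Pus10 as well, where the level was 8.52 to 15.03 CPM (log2 -1.60, adjusted p = 0.00215). An identifier without a symbol in the annotation used, FBgn0000210, was picked out after its values were seen. It was at 352, 268, 113 and 72.3 CPM in HDAC3 shRNA, with 24.3, 14.7, 5.43 and 3.66 CPM in rescue HEBI and 2.19 to 8.52 CPM in the control. Its log2 fold change was -4.16 (SE 0.32, adjusted p = 2.19e-08), and rescue WT was at 20.1 to 122 CPM (rescue HEBI minus rescue WT -2.51, adjusted p = 7.19e-05).

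Stress-responsive transcription factors of the bZIP family were lower in 3 of 7 cases (42.9%, against 2.51% over all tested genes). Atf3 was at 29.6, 28.7, 17.7 and 7.60 CPM in HDAC3 shRNA and at 5.18, 4.02, 3.09 and 2.48 CPM in rescue HEBI, within the control range of 1.87 to 6.68 CPM. Its log2 fold change was -2.36 (SE 0.30, adjusted p = 1.03e-05). The fly Fos gene kay had -1.19 (adjusted p = 0.000286) and the unfolded protein response factor gene Atf6 had -1.10 (adjusted p = 0.00144). Atf6 was at 16.5 CPM in HDAC3 shRNA replicate 1 and 17.2 CPM in its partner, so the difference came from the other 3 pairs, and its call was lost without rescue HEBI replicate 4 (log2 -0.99) and without replicate 2 or 3 of HDAC3 shRNA (-0.92 and -0.96). The other bZIP genes crc, Jra, cnc and Xbp1 had log2 values of 0.12, 0.48, -0.90 and -0.12.

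Among 14 nuclear receptor and ecdysone response genes, 4 were lower (28.6%, against 2.51% over all tested genes) and none was higher. Hr39 was at 33.8, 30.9, 32.5 and 19.0 CPM in HDAC3 shRNA, against 7.35, 5.34, 18.9 and 12.4 CPM in rescue HEBI (log2 -1.47, SE 0.29, adjusted p = 0.000634). Its paired log2 change was -2.34 over replicates 1 and 2 and -0.73 over replicates 3 and 4, and these differed by the interaction test (1.66, adjusted p = 0.000307). Eip75B, a heme-binding receptor induced by ecdysone, was at 75.9, 48.2, 78.5 and 58.8 CPM against 21.9, 18.5, 37.8 and 25.1 CPM (log2 -1.34, SE 0.18, adjusted p = 1.26e-05). Ftz-f1, the partner of the pair-rule protein Ftz, was at 507, 431, 229 and 188 CPM against 215, 210, 84.2 and 67.4 CPM (gene ftz-f1, log2 -1.31, SE 0.12, adjusted p = 2.89e-07), and its groups overlapped because levels differed between replicate numbers. Hnf4, a regulator of lipid use, had a log2 value of -1.15 (adjusted p = 0.00816). The ecdysone receptor genes EcR and usp were not called (log2 -0.84 and -0.44), and the median of the list was -0.09. Without the block 2 of the 14 were called.

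Small heat shock genes moved in both directions. Hsp27 and Hsp26 were lower, with log2 values of -1.49 (adjusted p = 0.000299) and -1.31 (adjusted p = 0.00485). Hsp27 was at 466, 485, 186 and 139 CPM in HDAC3 shRNA, against 131, 148, 88.3 and 50.3 CPM in rescue HEBI. Hsp23 was higher, at 28.9, 31.6, 34.7 and 44.8 CPM in HDAC3 shRNA, against 64.1, 80.5, 105 and 70.9 CPM in rescue HEBI, with no overlap (log2 1.18, SE 0.20, adjusted p = 0.000129). Hsp67Bc was also called higher (log2 1.19, adjusted p = 0.00544), and it fell under the threshold without rescue HEBI replicate 1 (0.96) or HDAC3 shRNA replicate 1 (0.88). Of the 10 tested genes 20% were lower and 20% higher, against 2.51% and 9.56% over all tested genes. The median of the 10 was 0.08, and without the block 1 was called higher and none lower.

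The study names 7 genes of these samples in its own account, so their direction here is no independent evidence. Of these, Smr, CG32772, sd and CG17698 were lower, Cad99C was higher, and ebi and sog were not called. Without the block 2 were lower and none higher. CG32772 was at 86.1, 91.7, 57.7 and 53.8 CPM in HDAC3 shRNA, against 28.5, 24.6, 31.2 and 27.3 CPM in rescue HEBI (log2 -1.36, SE 0.21, adjusted p = 8.53e-05). Scalloped (sd), the DNA-binding partner of Yorkie in the Hippo pathway, was at 104, 109, 97.02 and 65.0 CPM against 30.2, 25.9, 60.9 and 45.0 CPM (log2 -1.24, SE 0.22, adjusted p = 0.000287). Groups did not overlap for either gene. The cadherin gene Cad99C was at 2.45, 3.32, 13.7 and 5.53 CPM in HDAC3 shRNA, with 6.78, 5.22, 21.0 and 17.4 CPM in rescue HEBI and 12.5 to 26.8 CPM in the control. Its log2 fold change was 1.07 (SE 0.27, adjusted p = 0.00416), and it fell under the threshold without rescue HEBI replicate 4 (0.91) and without replicate 1 or 4 of HDAC3 shRNA (0.92 and 0.94). Short gastrulation (sog), the Dpp antagonist of the neuroectoderm, was higher in each pair at 62.8, 35.2, 140 and 133 CPM against 179, 60.4, 268 and 172 CPM (log2 0.86, adjusted p = 0.0116) without reaching the 2-fold threshold.

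Other called genes with lower levels belonged to lists in which they stood alone. These were lists of 6 glial, 11 septate junction, 81 ribosomal protein and 7 nuclear lamina genes. The single calls are 16.7%, 9.09%, 1.23% and 14.3%, against 2.51% lower over all tested genes, and do not speak for their lists. Gliolectin (glec), a glial surface protein, fell from 129, 209, 106 and 62.8 CPM to 28.3, 30.6, 44.8 and 35.3 CPM (log2 -1.74, SE 0.27, adjusted p = 7.49e-05), of which replicate 3 lay above the control range of 27.9 to 42.2 CPM and the other 3 within it. Coracle (cora), a septate junction protein, had a log2 value of -1.09 (adjusted p = 0.000753) and lost its call narrowly without rescue HEBI replicate 1 (-0.99) or HDAC3 shRNA replicate 1 (-0.97). The ribosomal protein gene RpL38 was at 139, 767, 512 and 517 CPM in HDAC3 shRNA, against 172, 245, 149 and 143 CPM in rescue HEBI, so 3 of 4 pairs were lower (log2 -1.29, adjusted p = 0.00992). Lamin C (gene LamC) had -1.08 (adjusted p = 0.0218) and was lower in 3 of 4 pairs, and 5 of 8 fits without a library lost the call. Without the block RpL38 and LamC were not called.

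Some of the genes that pattern the blastoderm were called higher. Of 14 genes of the dorsal ectoderm and amnioserosa, 9 were called higher and none lower. That is 64.3%, against 9.56% higher over all tested genes. The list had a median log2 change of 1.04. Dorsocross 2 (Doc2), a T-box factor of the amnioserosa, was at 6.42, 5.66, 32.7 and 40.1 CPM in HDAC3 shRNA and at 23.9, 22.3, 75.9 and 69.5 CPM in rescue HEBI. Each rescue HEBI library was above its partner, but the groups overlapped because replicates 3 and 4 of both genotypes were higher than replicates 1 and 2. The log2 fold change was 1.42 (SE 0.22, adjusted p = 8.09e-05 with the block and 0.47 without). Doc3 and the homeobox gene C15 gave 1.41 (adjusted p = 0.000109) and 1.30 (adjusted p = 6.91e-05). Ance, a peptidase of the amnioserosa, gave 1.01 (adjusted p = 0.000106), so close to the threshold that 4 of 8 fits without a library put it below (down to 0.92). The other called members were tld, scw, tup, pnr and Doc1, between 1.02 and 1.15, and dpp, zen, tsg, ush and peb lay between 0.47 and 0.95. The control values of Doc2 were 23.3, 19.8, 49.0 and 53.9 CPM, and rescue HEBI did not differ from them beyond the spread (log2 0.27, adjusted p = 0.474). The count of called members was 4 without HDAC3 shRNA replicate 1 or HDAC3 shRNA replicate 2, 5 without rescue HEBI replicate 1 or rescue HEBI replicate 2, and 1 without the block.

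Mesoderm genes followed, with 5 of 10 higher (50%, against 9.56% over all tested genes) and none lower (median 0.94). Stumps, an adaptor of the FGF receptor, was at 20.3, 16.9, 92.5 and 106 CPM in HDAC3 shRNA and at 66.5, 51.8, 212 and 174 CPM in rescue HEBI (gene stumps, log2 1.29, SE 0.24, adjusted p = 0.000422). Heartless (htl), the FGF receptor itself, gave 1.26 (adjusted p = 0.00116), and the homeobox genes bap and tin gave 1.11 and 1.10. Twist (twi), the factor that starts the mesoderm, was at 57.6, 43.8, 120 and 194 CPM against 149, 141, 227 and 219 CPM (log2 1.02, SE 0.25, adjusted p = 0.00359) and fell below the threshold in 4 of 8 fits without a library (down to 0.84). Snail (sna), which represses neuroectodermal genes in the mesoderm, had 0.86 and was not called, and Mef2, zfh1, how and fog had values between -0.38 and 0.24. The count for mesoderm genes was 3 without rescue HEBI replicate 2 or HDAC3 shRNA replicate 2 and 0 without the block. Thisbe (ths), an FGF ligand, and single-minded (sim), which specifies the midline, were the 2 called of 11 neuroectoderm genes, with log2 values of 1.02 and 1.20 and a list median of 0.86. They made up 18.2% of that list.

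Few segmentation genes passed 2-fold. The lists of 8 pair-rule, 7 segment polarity, 8 Hox and 11 gap and head genes had medians of 0.98, 0.81, 0.80 and 0.79, against 0.08 for all tested genes. Their called members were 1, 1, 2 and 2, all higher, which is 12.5%, 14.3%, 25% and 18.2% of the lists, against 9.56% higher over all tested genes. Engrailed (en), the marker of posterior compartments, was at 8.11, 7.36, 40.6 and 46.3 CPM in HDAC3 shRNA and at 17.9, 17.9, 87.2 and 75.8 CPM in rescue HEBI (log2 1.04, SE 0.22, adjusted p = 0.00117). Sloppy paired 2 (slp2), a forkhead pair-rule factor, gave 1.09 (adjusted p = 0.000637). Deformed (Dfd), a Hox gene of the head, gave 1.12 (adjusted p = 0.00213), and knirps (kni) and buttonhead (btd), a gap and a head gap gene, gave 1.08 and 1.07. All these were higher in each pair. Except Dfd, each lost its call in at least 1 fit without a library, with log2 values no lower than 0.96 and adjusted p no higher than 0.0096. The Hox gene proboscipedia (pb) was the weakest, at 1.09 (adjusted p = 0.0251) and 0.83 without HDAC3 shRNA replicate 1. For pair-rule genes the count was 7 without rescue HEBI replicate 4 and 5 without rescue HEBI replicate 3. Without HDAC3 shRNA replicate 4 the pair-rule, segment polarity, gap and neuroectoderm counts were 8, 3, 5 and 6. Without HDAC3 shRNA replicate 1 they were 1, 0, 0 and 1, and without the block these and the Hox count were 0.

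The size of the patterning difference depended on the replicate number. Over replicates 1 to 4 the medians of the pair differences for pair-rule genes were 1.39, 1.34, 0.93 and 0.31 on the log2 scale. For mesoderm genes they were 1.25, 1.25, 0.88 and 0.27, and for dorsal ectoderm genes 1.39, 1.29, 1.002 and 0.63. All tested genes had medians of 0.07, 0.08, 0.05 and 0.02. Fitted alone, replicates 1 and 2 gave 1478 higher and 435 lower genes, and replicates 3 and 4 gave 251 and 259. The change differed between both sides of this division for 1733 genes (17.3%) at an adjusted p of at most 0.05 by an interaction test, among them Doc2 (-0.94, adjusted p = 0.00421) and twi (-1.01, adjusted p = 0.00905). The 2-fold calls kept within replicates 1 and 2 were 681 of 956 higher and 198 of 251 lower, and within replicates 3 and 4 they were 228 and 154. HDAC3 shRNA replicates 1 and 2 held 237 and 197 CPM summed over the pair-rule genes, and replicates 3 and 4 held 632 and 983 CPM. Rescue HEBI held 632, 498, 1194 and 1179 CPM, and the control 678, 466, 889 and 956 CPM. What sets both sides of the replicate division apart was not tested.

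**Figure D3:**
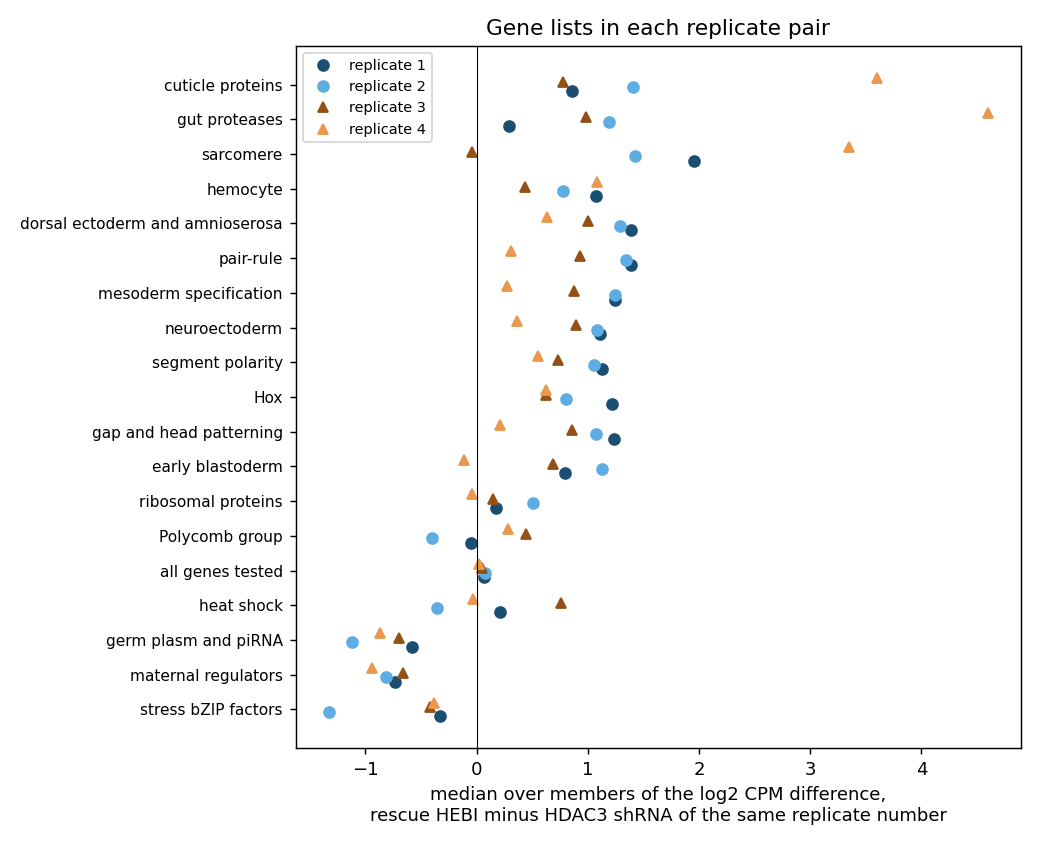
Median over the tested members of each gene list of the log2 CPM difference between rescue HEBI and HDAC3 shRNA of the same replicate number, 1 symbol per pair (circles, replicates 1 and 2; triangles, replicates 3 and 4). Patterning lists lie to the right of 0 in each pair except early blastoderm genes in pair 4, maternal and germ plasm lists to the left in all 4, and the cuticle, gut protease and sarcomere lists reach 3.60, 4.60 and 3.35 in pair 4.

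Further zygotic genes were higher beside these lists. Z600, the inhibitor that stops the cell cycle at the blastoderm, was at 41.7, 46.8, 33.2 and 70.9 CPM in HDAC3 shRNA, against 161, 149, 80.7 and 98.3 CPM in rescue HEBI, with no overlap (log2 1.35, SE 0.34, adjusted p = 0.00418). It was the only called one of 9 early blastoderm genes (11.1%, against 9.56% higher over all tested genes). The median of these 9 was 0.58. The ecdysone synthesis enzymes dib and sad gave 1.24 (adjusted p = 0.000339) and 1.10 (adjusted p = 0.000224). They were the called ones of 5 tested genes in that list (40%). The neuroblast adaptor gene mira was at 187, 123, 448 and 577 CPM against 492, 363, 839 and 828 CPM (log2 1.09, adjusted p = 0.000504), and the active zone gene brp gave 1.11 (adjusted p = 0.000889). Each was the only called one of 9 tested genes in its list, neuroblast or neuronal. That is 11.1%, close to the 9.56% higher over all tested genes, so these calls do not speak for their lists. Without 1 library, sad, mira and brp dipped to 0.97, 0.95 and 0.91, and without the block none of the ecdysone synthesis, early blastoderm, neuroblast and neuronal lists had a call.

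**Figure D4:**
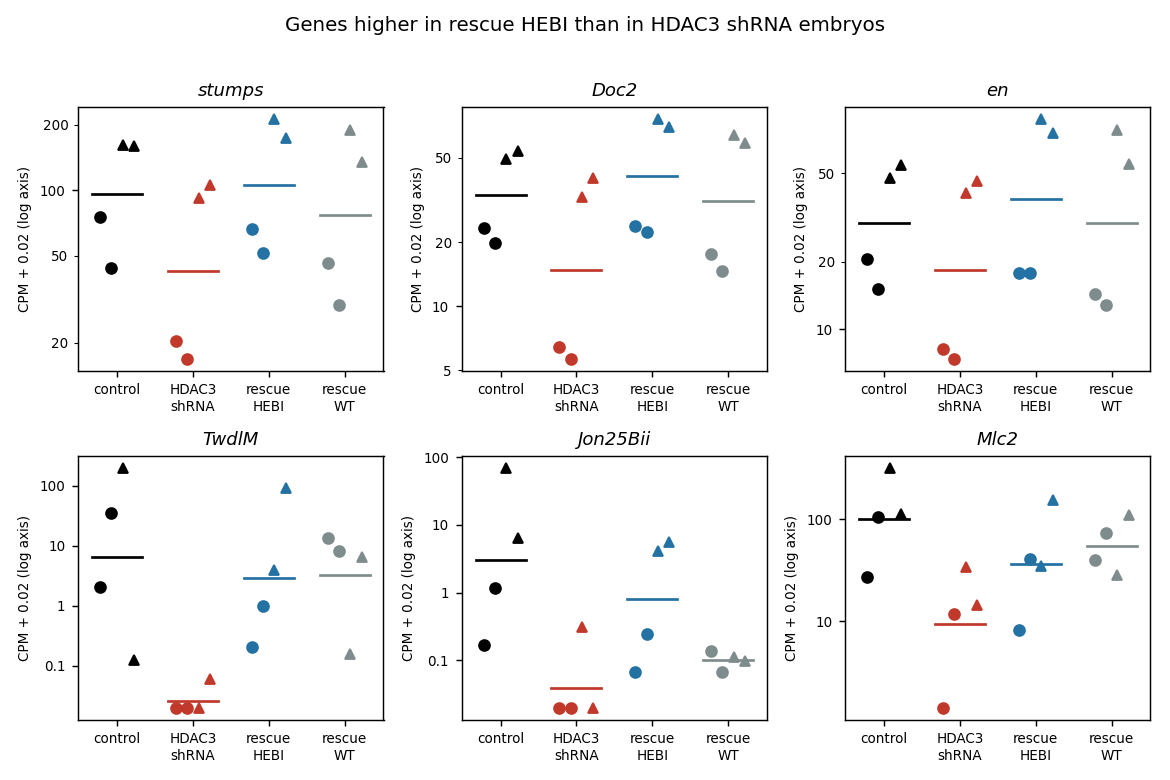
CPM (log axis, 0.02 added) of 6 genes that were higher in rescue HEBI than in HDAC3 shRNA, drawn as for the lower genes. For stumps, Doc2 and en triangles lie above circles in every group drawn and each rescue HEBI library lies above its HDAC3 shRNA partner, while for TwdlM and Mlc2 rescue HEBI replicate 4 lies far above the other 3.

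Genes of late differentiation gave many of the largest rises, and these leaned on 1 library. Of 123 genes for cuticle proteins in the table, 62 were tested, 36 were called higher and none lower. That is 58.1% of those tested, against 9.56% higher over all tested genes. The list had a median log2 change of 3.01. With the 3 members that had no read in HDAC3 shRNA set at their bound against a floor of 3 counts the median was 2.98. Summed over the 123 genes, cuticle transcripts took 10.3, 11.6, 56.7 and 24.7 CPM in HDAC3 shRNA, against 40.3, 97.3, 80.8 and 570.5 CPM in rescue HEBI. The control held 41.7, 270.3, 1400 and 60.6 CPM. Rescue HEBI replicate 4 was thus the highest of the 8 libraries compared, and control replicate 3 was higher still. Without rescue HEBI replicate 4 the called cuticle genes numbered 11, without HDAC3 shRNA replicate 4 they numbered 19, and without the block 5. From 47 to 87 of the 123 genes had no count in a given HDAC3 shRNA library.

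Tweedle genes, which encode a family of larval cuticle proteins, led the list. TwdlM was at 0, 0, 0 and 0.0392 CPM in HDAC3 shRNA, against 0.188, 0.975, 3.94 and 92.6 CPM in rescue HEBI. That is 1 count in 4 libraries against 1816, a ratio of 1990 with an exact 95% counting interval of 358 to 78800. The adjusted p was 0.0179, and it was 0.144 without rescue HEBI replicate 4. TwdlL, TwdlD and Cpr65Ea also had 1 count each in HDAC3 shRNA, against 468, 661 and 675. Their ratios were 514 (91.8 to 20300), 726 (130 to 28700) and 741 (133 to 29300). Rescue HEBI replicate 4 alone held 445, 569 and 592 of these counts, so the pooled ratios rest mainly on that library. TwdlB had none against 736. The lower limit of its exact 95% interval was 219-fold, and a floor of 3 counts over the group gave 276-fold. Intervals and floors cover counting error only. TwdlD and Cpr65Ea kept their calls in all 8 fits without a library, and TwdlL, TwdlN and Cpr47Eg lost theirs without rescue HEBI replicate 4 (adjusted p 0.201, 0.465 and 0.362). TwdlM, TwdlL, TwdlN, TwdlD and TwdlB lie near each other on 3R, and reads of such similar neighbours may have been divided between them in counting.

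The same library stood out for muscle and gut genes. Of 16 sarcomere genes, 9 were higher (56.2%, against 9.56% over all tested genes) and none lower (median 1.75). Myosin light chain 2 (Mlc2) was at 1.40, 11.7, 34.2 and 14.2 CPM in HDAC3 shRNA, against 8.24, 40.8, 35.0 and 153 CPM in rescue HEBI (log2 1.92, SE 0.61, adjusted p = 0.0165), with pair 3 nearly equal. The control held 27.1, 105, 315 and 112 CPM. Without rescue HEBI replicate 4 the list had 1 call, without HDAC3 shRNA replicate 4 it had 2, and Mlc2 had 1.16 (adjusted p = 0.114). The counts without HDAC3 shRNA replicate 1 and HDAC3 shRNA replicate 2 were 4 and 3, and those without replicate 3 of either genotype were 14. Without the block no sarcomere gene was called. Act87E, a muscle actin, was steadier at 4.61, 5.80, 19.7 and 26.3 CPM against 12.8, 19.5, 48.1 and 70.5 CPM (log2 1.45, SE 0.28, adjusted p = 0.000613).

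Of 15 tested gut proteases, 7 were higher (46.7%, against 9.56% over all tested genes) and none lower (median 2.51). Without rescue HEBI replicate 4 or HDAC3 shRNA replicate 4 the count was 2. Without the block none was called. Jon25Bii, a Jonah serine protease, was at 0, 0, 0.295 and 0 CPM in HDAC3 shRNA, against 0.0471, 0.23, 4.15 and 5.65 CPM in rescue HEBI (log2 5.12, adjusted p = 0.0111, and 0.0518 without rescue HEBI replicate 4). The summed gut protease level was 0.875, 1.56, 22.8 and 2.82 CPM in HDAC3 shRNA, with 2.68, 5.16, 39.5 and 70.8 CPM in rescue HEBI and 2.76, 14.8, 689 and 77.6 CPM in the control. Jonah genes are close copies of each other, so the level of a single one is uncertain. Among maltases of the gut, 4 of 8 were higher (50%). Mal-A2 was the steadiest at 0.35, 0.195, 0.393 and 0.0784 CPM against 1.37, 1.43, 1.01 and 1.61 CPM (log2 2.47, SE 0.56, adjusted p = 0.00194). Of 7 hemocyte genes 3 were higher (42.9%). The crystal cell oxidase gene PPO2 was at 2.33, 4.49, 6.68 and 4.19 CPM against 9.42, 7.46, 12.1 and 16.5 CPM (log2 1.36, SE 0.31, adjusted p = 0.00181), below the control at 32.5 to 52.4 CPM (log2 -1.79, adjusted p = 0.000856). Col4a1 and vkg, which encode collagen IV, gave 1.85 and 1.72 and lost their calls without rescue HEBI replicate 4 (0.98 and 0.86). The hemocyte count was then 1. Without the block 2 maltase genes and 1 hemocyte gene were called. Over all tested genes, 770 were higher without rescue HEBI replicate 4, and 649 of these were among the 956 of the full fit. The part of the late markers of this library in the other rises was not tested further.

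Other large rises were found in each of the 4 pairs. CG43755 (2L, 325522 to 329761, 2 exons) was at 0.0583, 0.146, 0.0983 and 0.157 CPM in HDAC3 shRNA and at 9.51, 10.7, 36.3 and 31.9 CPM in rescue HEBI (log2 7.40, SE 0.41, adjusted p = 2.94e-10). The control was at 0.0985 to 0.426 CPM and rescue WT at 1.34 to 6.86 CPM. In the Y303F rescue CG43755 was at 15.9 to 36.6 CPM, which overlaps rescue HEBI, and in the K26A rescue at 0.156 to 0.662 CPM. Tektin-C, a component of ciliary microtubules, was at 0.0583, 0.536, 0.442 and 0.549 CPM against 4.19, 5.39, 8.41 and 10.3 CPM (log2 4.13, SE 0.31, adjusted p = 1.97e-08), near the control at 6.74 to 14.7 CPM. Over the rescue HEBI libraries its order was that of the summed gut proteases, and a relation between them was not tested. CG30046 was at 0.525, 0.585, 0.983 and 1.02 CPM against 13.4, 11.5, 21.2 and 16.7 CPM (log2 4.32, SE 0.21, adjusted p = 9.02e-11), above the control at 5.17 to 7.04 CPM (log2 1.35, adjusted p = 6.45e-05). The Y303F rescue held 7.11 to 11.8 CPM of CG30046 and the K26A rescue 5.21 to 9.56 CPM, so the highest Y303F library reached the lowest of rescue HEBI. The calls of these 3 held in every fit without a library and without the block.

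Cpr5C, l(2)03659 and jtb differed between rescue HEBI and rescue WT. Cpr5C (X, 5804677 to 5805344, 2 exons), a cuticle protein gene, was at 0.117, 0.0975, 0.0491 and 0.118 CPM in HDAC3 shRNA and at 10.6, 11.8, 16.4 and 11.4 CPM in rescue HEBI (log2 6.96, SE 0.80, adjusted p = 2.99e-06). Rescue WT was at 0.0463 to 0.0955 CPM and the control at 0.0533 to 2.72 CPM. The difference from rescue WT was 7.39 (adjusted p = 3.29e-05). Cpr5C was at 1.68 to 4.22 CPM in the Y303F rescue and at 2.29 to 7.22 CPM in the K26A rescue, between the levels of HDAC3 shRNA and rescue HEBI. Replicate 4 of rescue HEBI did not stand out for this cuticle gene. The next tested gene, Prosbeta2R1, a proteasome subunit gene 3610 bp away, was also higher (log2 2.14, adjusted p = 0.00444), whereas its difference from rescue WT did not pass the test (1.05, adjusted p = 0.282). The ABC transporter gene l(2)03659 was at 0.817, 1.07, 0.688 and 0.588 CPM in HDAC3 shRNA, against 16.3, 16.2, 8.83 and 8.99 CPM in rescue HEBI (log2 3.95, SE 0.25, adjusted p = 2.15e-09). The control was at 0.693 to 1.49 CPM and rescue WT at 0.927 to 3.77 CPM. The Y303F rescue was at 8.69, 8.55, 4.88 and 4.34 CPM, below rescue HEBI at each replicate number. The K26A rescue was at 0.421 to 1.40 CPM.

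The third gene, jtb (2R, 16432244 to 16433183, 2 exons), went down. It was at 13.3, 20.6, 7.91 and 11.6 CPM in HDAC3 shRNA, 10.2, 11.4, 4.17 and 5.81 CPM in the control and 10.3, 18.3, 6.86 and 10.99 CPM in rescue WT. In rescue HEBI it was at 1.41, 1.03, 0.16 and 0.538 CPM, below every library of these 3 groups. It was at 8.60 to 18.2 CPM in the Y303F rescue and at 10.2 to 25.9 CPM in the K26A rescue. The log2 fold change was -4.11 (SE 0.24, adjusted p = 8.44e-10), and it was -3.33 against the control (adjusted p = 4.37e-08) and -3.92 against rescue WT (adjusted p = 9.78e-09). The tested neighbours Sema2b, 486 bp away, and Sema2a had log2 values of -0.79 and -0.06 and were not called. Over all tested genes, 61 differed between rescue HEBI and rescue WT (0.61%), 29 higher and 32 lower, and 4 did without the block. Without rescue WT replicate 2 there were 40. Of the 956 genes higher in rescue HEBI than in HDAC3 shRNA, 24 were also called higher than in rescue WT and 2 lower, and of the 251 lower genes 19 were also called lower and 0 higher. Both comparisons use the same rescue HEBI libraries, which favours agreement in direction in advance, so these counts are no independent evidence.

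**Figure D5:**
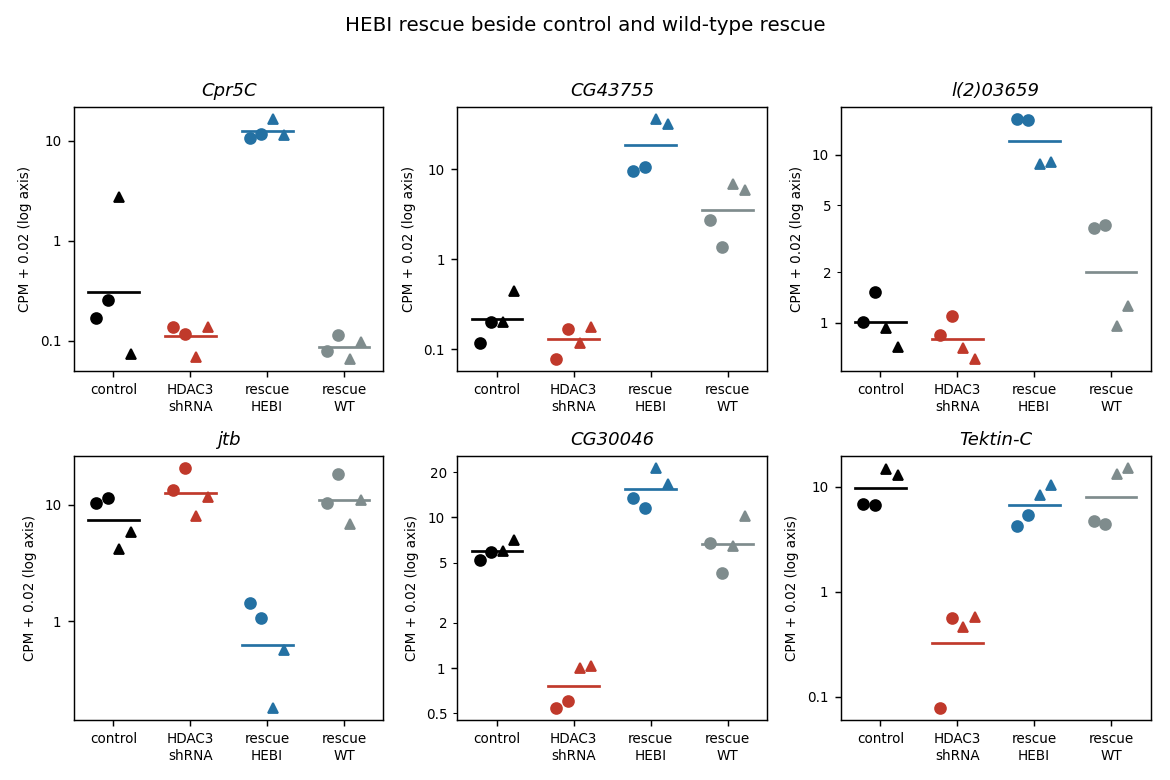
CPM (log axis, 0.02 added) of Cpr5C, CG43755, l(2)03659, jtb, CG30046 and Tektin-C in the 4 libraries of control, HDAC3 shRNA, rescue HEBI and rescue WT, drawn as for the lower genes. For the first 3 and CG30046 all rescue HEBI libraries lie above all libraries of the other 3 groups drawn, for jtb all lie below, and for Tektin-C rescue HEBI overlaps the control and rescue WT.

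Several lists had few or no calls, against 9.56% higher and 2.51% lower over all tested genes. In short lists such counts do not show that levels were equal. None of 15 Polycomb group genes was called (median 0.02), and their pair medians were -0.05, -0.40, 0.44 and 0.28. Of 81 ribosomal protein genes 1 was called lower (1.23%). Of 70 tested mitochondrial ribosomal protein genes none was called, and of 61 oxidative phosphorylation genes 1 was higher (1.64%). None of the 12 tested Osiris genes, which are expressed in the epidermis as cuticle forms, was called. Their pair medians were 2.08, 1.95, -1.60 and -0.60, opposite in sign between both sides of the replicate division. For the activators of the zygotic genome, zld, Trl and Clamp, the median was -0.35 and none was called. Eggshell and yolk genes had 2 called higher of 9 (22.2%, against 9.56% over all tested genes), and 1 without the block. Cp15, a chorion protein, was at 2.17, 31.1, 1.22 and 0.377 CPM in rescue HEBI and at 0.0583, 0.195, 0.737 and 0.784 CPM in HDAC3 shRNA (log2 3.79, adjusted p = 0.00496, and 0.0556 without rescue HEBI replicate 2). The pigment gene yellow (y), which differs between stocks, was at 13.7, 10.5, 27.1 and 35.2 CPM in HDAC3 shRNA, against 16.3, 14.6, 19.4 and 30.0 CPM in rescue HEBI, while the control was at 1.23 to 3.20 CPM. It did not differ between the groups compared beyond the spread (log2 0.01, SE 0.25, adjusted p = 0.987).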

How the data were processed

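RNA was extracted from whole embryos with TRIzol LS, and libraries were made with a stranded total RNA kit. The authors aligned reads to dm6 with STAR, using its defaults, and assigned them to genes with featureCounts. The deposited values are raw read counts per FlyBase gene identifier, for 24 libraries in one table. No source used here gives the tool versions, the annotation or whether strand was used in counting, so reads of overlapping or antisense genes cannot be told apart. The authors' own comparisons, made with DESeq2 against the control, were not used.

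Symbols and coordinates came from Ensembl release 115 (BDGP6.54), in which 17253 of 17559 identifiers had a symbol. Counts of all 24 libraries were fitted with edgeR 4.0.16 (R 4.3.3) after filterByExpr and TMM scaling. The quasi-likelihood model had genotype and replicate number as a block, and p-values were Benjamini-Hochberg adjusted over 10003 genes. Log2 fold changes are rescue HEBI over HDAC3 shRNA, with the standard error (SE) from the F statistic. Pair differences used log2 CPM with a prior count of 2. The block was kept because same-numbered libraries deviated together from their group means, with correlations across genes of 0.596, 0.603, 0.553 and 0.36 for numbers 1 to 4. Libraries of different number on the same side of the division 1 and 2 against 3 and 4 also correlated (0.325 to 0.662), and rescue HEBI replicate 4 was closer to HDAC3 shRNA replicate 3 (0.662) than to replicate 4. Libraries of a group differed far beyond sampling noise (mean chi-square per gene of at least 36.5), so none was counted as a repeat. The interaction test compared the change in replicates 3 and 4 with that in replicates 1 and 2. Where the sources say no more than biological replicates, p-values measure the spread between these pools.

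Genes named were the 12 with the largest change in each direction among called genes with a symbol, at least 5 CPM in the higher group and 1 sign in all 4 pairs, up to 4 called members of each list by smallest p (the 1 with the smallest p where none was called), and the genes the study names with the markers of its stocks. Further members of a list were named to account for its count. The genotypes, gene lists and naming rule were chosen with earlier results of these data known. On simulated counts for 9883 genes the fit recovered 20, 49, 50 and 50 of 50 genes changed by 2-, 4-, 8- and 16-fold and called 6 of 9683 unchanged genes. The simulation took its spread from the fitted model and gave each gene the same change in every pair. In the data 1733 genes differed between sides of the replicate division. Changed genes averaged at least 1 CPM, so recovery and false calls in the data, mainly at low levels, can differ from these. Alternatives were the fit without the block, the 8 libraries alone, DESeq2 1.42.0, other scalings, filters and thresholds, each side of the replicate division and each library left out. Leaving out libraries for the gene lists and for rescue HEBI against rescue WT was added after the data were seen.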

Additional observations from a re-analysis of the deposited data

Results flagged for a closer look

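In groups of 4, the sample farthest from the others was set against the range of its group, a comparison that chance alone passes in about 1 of 20 groups. Of 224 groups checked 12 passed, a share close to that of chance. In HDAC3 shRNA the gap filled the whole range, a ratio of 1, for TwdlM, TwdlL, Cpr65Ea, TwdlD, Jon25Bii and Mal-A8, for which 3 of the 4 libraries had no count. The ratio was 0.888 for obst-E, 0.847 for Mal-A3, 0.842 for Hr39 and 0.83 for Tektin-C in the same group. In rescue HEBI it was 0.865 for stil, where replicate 3 was high, and 0.852 for ATPsynbetaL, where replicate 3 was low.

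Rescue HEBI differed from rescue WT by the edgeR test of that difference for 17 of the named genes. It was higher, on the log2 scale, by 7.39 for Cpr5C, 5.59 for Jon99Ciii, 5.09 for Jon99Cii, 4.97 for Cp15, 2.52 for l(2)03659, 2.35 for CG43755 and 1.19 for CG30046. The differences were -3.92 for jtb, -2.16 for CG1998, -1.60 for lncRNA:CR43837, -1.51 for CG3842, -1.39 for CG34112, -1.26 for CG5835, -1.25 for bam, -1.24 for CG13252, -1.16 for Smr and -1.07 for Eip75B. Leaving out each of the 8 libraries of both rescues, the calls held in all 8 fits for Cpr5C, l(2)03659, CG43755, CG30046, jtb, CG1998, lncRNA:CR43837, CG3842, CG34112, bam and CG13252. They held in 7 for Smr and Eip75B, in 4 for Cp15, in 3 for Jon99Ciii and in 2 for Jon99Cii and CG5835.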

How the results depend on the processing

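The numbers of genes called higher and lower (956 and 251) were 94 and 74 without the replicate block, 36 and 46 in the 8 libraries alone without it, and 335 and 140 with a mean of at least 5 CPM required. They were 2175 and 2072 by adjusted p alone, 1613 and 827 at a fold of 1.5, and 1478 and 435 in replicates 1 and 2 alone. The higher genes numbered 535 in the 8 libraries alone with the block and 251 in replicates 3 and 4 alone, where 259 were lower. DESeq2 with the block gave 995 and 262, and library totals without TMM gave 1062 and 209. With 1 library left out the counts were 660 to 1184 higher and 223 to 289 lower. Genes that differed between rescue HEBI and rescue WT (61) numbered 4 without the block and 40 to 64 with 1 library left out, the lowest without rescue WT replicate 2. The sign was followed for the named genes only, some of which were picked for 1 sign in all 4 pairs. Among the named genes, only some that were not called changed sign. The yellow gene (y) had log2 values of -0.11 without the block, -0.10 in the 8 libraries without it, -0.070 with no filter on low counts, -0.36 in replicates 3 and 4, and -0.12 to 0.18 with 1 library left out. Snr1 had -0.055 in replicates 3 and 4, and w had -0.0064 in replicates 1 and 2. With 1 library left out, Snr1 ranged from -0.021 to 0.15 and w from -0.0057 to 0.52. The cause of these shifts was not tested. Depth limits the genes with fewer than 1 CPM, or about 17 to 26 counts, in HDAC3 shRNA, and for these the fold is less sure than the direction.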
